A study of Mus musculus with 12 samples.

Results

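The MHC class II genes H2-Aa, H2-Ab1, H2-Eb1, H2-DMa, Cd74 and Ciita were followed in whole spinal cord RNA from 12 mice. The genes were taken by name, joining the symbols of the authors' FPKM table to the Ensembl identifiers of their count table, and all 6 were found among 37991 identifiers. All 12 mice were adults (over 8 weeks) of C57bl/6J background and carried the alleles Glast-CreERT2, R26R-YFP and Rasless. In the Rasless line Hras and Nras are lost from every cell, so the controls also lack Hras and Nras. The Cre is driven by the Glast promoter and becomes active with tamoxifen, in a line used to reach type A pericytes, while the RNA came from all cells of the homogenised tissue. The 4 uninjured mice were labelled as vehicle-injected and gave a cord segment. The 4 vehicle mice received solvent injections, a dorsal hemisection and lesion dissection 14 days later. The 4 tamoxifen mice received 2 mg of tamoxifen on each of 5 days and were injured after 7 clearing days, with dissection 14 days later. The series describes their lesions as having less pericyte-derived scar.

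MHC class II molecules are surface proteins that show peptides from ingested material to CD4+ T cells. The classical molecule is a pair of chains. H2-Aa and H2-Ab1 encode the alpha and beta chains of H2-A, and H2-Eb1 encodes the beta chain of H2-E, whose alpha chain is not made in mice of the C57BL/6 haplotype. Cd74 encodes the invariant chain, which guides new class II molecules to the endosome and blocks the peptide groove. H2-DMa encodes a chain of H2-DM, which exchanges the remnant of the invariant chain for peptide. Ciita encodes the transactivator that switches on these genes together, and interferon gamma is its best known inducer. In the cord, class II is carried mainly by macrophages at the borders, by dendritic cells and by activated microglia, and in an injured cord also by cells that enter from the blood.

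Class II promoters are known for a shared layout in which an X box, bound by the Rfx proteins, lies upstream of a Y box, the ATTGG element bound by NF-Y, and Ciita docks on the proteins that bind there. The 150 bases before the RefSeq start site (GRCm38.p6) are shown for the 3 members with an entry in the promoter table, since the report turns on genes that share this control. The sequences run 5′ to 3′ on the gene's strand, and capitals mark GCAAC, a core of the X box, and ATTGG, on either strand (GTTGC and CCAAT on the other).
H2-Aa, chr17:34287824-34287973, minus strand: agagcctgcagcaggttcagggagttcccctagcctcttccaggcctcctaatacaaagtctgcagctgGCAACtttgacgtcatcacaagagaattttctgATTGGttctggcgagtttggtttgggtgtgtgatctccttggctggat
H2-Eb1, chr17:34305717-34305866, plus strand: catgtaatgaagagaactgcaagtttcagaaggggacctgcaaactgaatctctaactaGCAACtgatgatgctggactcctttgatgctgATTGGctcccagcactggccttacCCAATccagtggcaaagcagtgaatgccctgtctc
H2-DMa, chr17:34122682-34122831, plus strand: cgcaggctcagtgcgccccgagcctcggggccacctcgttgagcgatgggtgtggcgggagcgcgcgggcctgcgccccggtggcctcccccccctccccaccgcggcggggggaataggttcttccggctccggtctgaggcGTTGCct
In H2-Aa, GCAAC began 81 bases and ATTGG 48 bases before the start site, 33 bases apart. In H2-Eb1 they began 91 and 59 bases before it, 32 bases apart, and a CCAAT followed 35 bases before the start. The same order, GCAAC and then ATTGG with 25 to 45 bases between their first letters, was sought on both strands. It was present on 1 strand or the other in 0.843% of the 32851 promoter windows of 250 bases. Each word alone was common, ATTGG being found on either strand in 33.8% of windows and GCAAC in 29.9%. Among the other class II genes the pair was found for H2-Ob (30 bases apart), H2-Oa (33) and H2-Eb2 (32). It was not found in the windows of H2-DMa, H2-DMb1 and H2-DMb2. A match of letters is a description of the window and was not tested as a binding site.

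Library totals ran from 7967970 to 12581324 counts. Levels of single genes are given as CPM, counts scaled to the library size and TMM factor, 1 count being worth from 0.0784 to 0.123 CPM, and libraries are named by mouse number. Neuronal, astrocyte and myelin genes of the cord were abundant in every group, Mbp between 7625 and 8150 CPM on average. Some properties of the libraries went along with the groups. The sample names in the labels ran from 1 to 20 in 9 libraries, tamoxifen library 452 among them, and from 106 to 108 in the other 3 tamoxifen libraries, 513, 549 and 564. What that naming stands for is not given in the sources used here. By sex-linked transcripts all 4 tamoxifen mice were female, while 402, 428, 457 and uninjured 467 were male. Skeletal muscle transcripts (10 genes, mean log2 CPM above 2) were high in 377, 385, 402, 429 and 457. Each title carries its own number, taken here as the mouse, and p-values measure the spread between these libraries.

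Per unit length, levels were read on the authors' FPKM scale (fragments scaled to transcript length and library size). The invariant chain had the highest mean of the 6 transcripts in every group. In uninjured library 467, at 1.71 FPKM, it lay below H2-DMa (5.11) and H2-Ab1 (2.05). In uninjured cord Cd74 averaged 21.7 FPKM ± 15.6 (SD, n = 4), H2-Aa 7.79 ± 5.18, H2-Ab1 6.79 ± 4.22 and H2-DMa 5.40 ± 0.751. H2-Eb1 averaged 1.26 ± 0.438 and Ciita 0.260 ± 0.0655. H2-Aa, H2-Ab1 and H2-DMa overlapped in their library values and have no clear order, while H2-Eb1 overlapped with H2-Aa through library 467 and Ciita lay lowest in all 12 libraries. In vehicle lesions the means were 67.5 FPKM ± 25.1 for Cd74, 22.5 ± 6.60 for H2-Aa, 21.6 ± 7.78 for H2-Ab1, 8.57 ± 1.23 for H2-DMa, 7.93 ± 7.42 for H2-Eb1 and 0.398 ± 0.215 for Ciita. There H2-Aa and H2-Ab1 overlapped with each other and lay above H2-DMa in every library, while H2-Eb1 overlapped with all 3. The chains H2-Aa and H2-Ab1 stayed near each other, with an H2-Ab1 to H2-Aa ratio from 0.715 to 1.21 in 11 libraries. Uninjured library 467 stood apart at 2.14, on 12 counts of H2-Aa and 22 of H2-Ab1. Cd74 exceeded H2-Aa in each library, by 1.79 to 3.51 times.

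H2-Aa, the alpha chain, stood at 9.76, 15.2, 7.91 and 1.05 CPM in uninjured libraries 376, 377, 385 and 467. In vehicle lesions it stood at 21.2, 16.8, 31.0 and 29.1 CPM in 402, 428, 429 and 457. In tamoxifen lesions it stood at 63.6 CPM in 452 and at 13.4, 5.64 and 5.33 CPM in 513, 549 and 564. Every vehicle library lay above every uninjured one, and the tamoxifen group held both the highest value of all 12 and 3 values inside the uninjured range. H2-Ab1, its partner, followed the same course. It stood at 7.80, 13.8, 6.33 and 1.93 CPM in uninjured cord, at 18.3, 14.8, 30.7 and 28.7 in vehicle lesions, and at 64.6, 12.4, 7.02 and 5.51 in tamoxifen lesions, libraries in the order above. Here too the vehicle and uninjured libraries did not overlap, and 452 exceeded the highest vehicle library 2.11 times.

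Cd74, the invariant chain, stood at 27.0, 42.8, 22.6 and 1.93 CPM in uninjured cord. In vehicle lesions the values were 58.1, 49.6, 78.8 and 110.5 CPM, and in tamoxifen lesions 183.6 CPM in 452 against 28.0, 12.7 and 11.3 in 513, 549 and 564. All vehicle libraries exceeded all uninjured ones, and 452 was 10.6 times the mean of the other 3 tamoxifen libraries, the widest such gap among the 6 genes. Library 467 held 22 counts of Cd74, where the other 3 uninjured libraries held 235 to 499.

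H2-Eb1, the second beta chain, was low in uninjured cord at 1.72, 1.71, 1.41 and 0.966 CPM. Vehicle lesions split, with 12.6 CPM in 428 and 20.5 in 429 but 2.14 in 402 and 1.65 in 457. Tamoxifen lesions stood at 33.7 CPM in 452 and at 7.64, 3.82 and 2.20 in 513, 549 and 564. Vehicle library 457 lay inside the uninjured range although its H2-Aa, H2-Ab1 and Cd74 were among the highest, while all 4 tamoxifen libraries lay above every uninjured one.

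H2-DMa, the exchange factor chain, varied least. It stood at 7.92, 9.60, 7.64 and 6.58 CPM in uninjured cord and at 8.01, 10.1, 11.2 and 11.3 CPM in vehicle lesions, and the groups overlapped on this scale. In FPKM they did not, with 4.71 to 6.46 in uninjured cord and 7.24 to 10.2 in vehicle lesions. In tamoxifen lesions it stood at 23.6 CPM in 452 and at 7.92, 9.28 and 8.36 CPM in 513, 549 and 564. Ciita, the transactivator, had 12 to 88 counts a library. It stood at 2.53, 3.26, 3.25 and 2.28 CPM in uninjured cord and at 2.99, 1.73, 3.49 and 5.25 CPM in vehicle lesions. Tamoxifen lesions held 10.6 CPM in 452 and 2.24, 1.04 and 1.38 CPM in 513, 549 and 564. In CPM the last 3 lay below every uninjured library, 513 only narrowly (2.24 against 2.28 in 467). In FPKM 513 stood at 0.2676, inside the uninjured range of 0.2041 to 0.3496, while 549 and 564 lay below that range. The symbol Ciita belonged to a second identifier as well, which held at most 5 counts in any library and was left out.

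**Figure D1:**
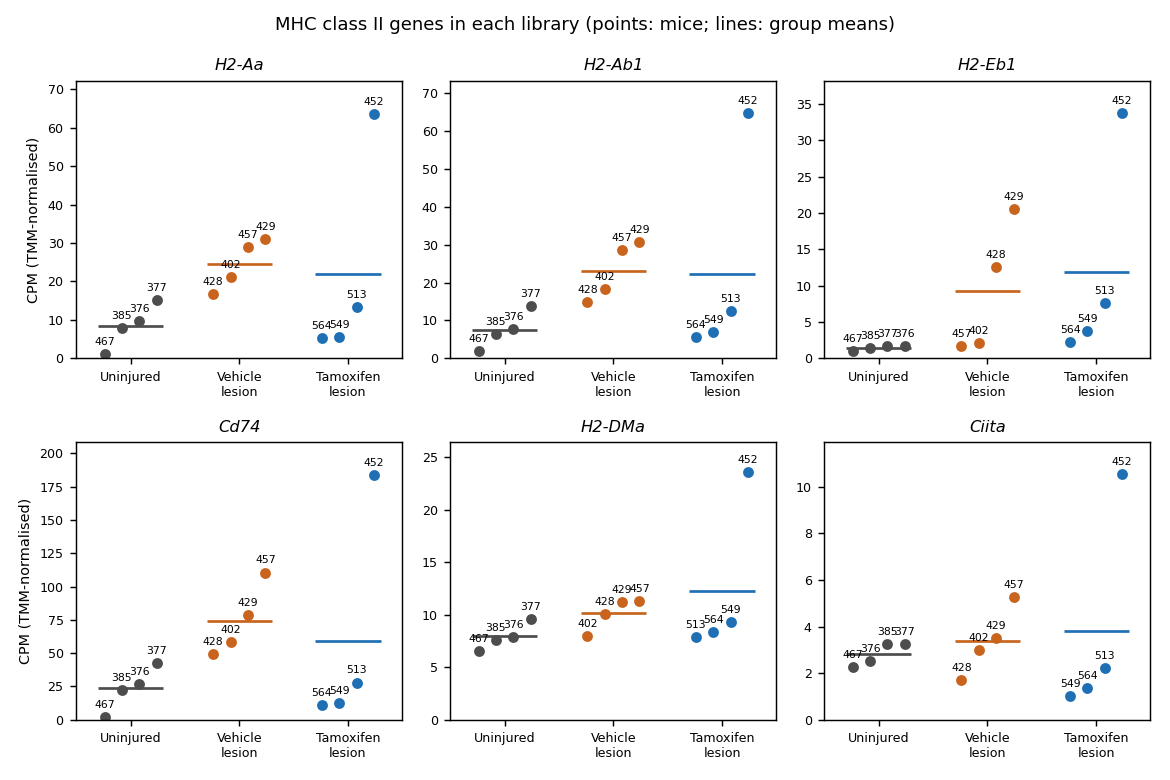
TMM-normalised CPM (y axis, linear, from 0) of the 6 MHC class II genes in each library by group; points are mice with their numbers, and lines are group means of 4. Tamoxifen library 452 is the highest of all 12 points in each panel (63.6 CPM for H2-Aa, 183.6 for Cd74), and 467 is the lowest in 5 of 6.

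The first comparison asks how class II transcripts differ between a scarred lesion and intact cord. H2-Eb1 rose in vehicle lesions, by 2.66 on the log2 scale (SE 0.987, adjusted p = 0.0389, edgeR's quasi-likelihood test with Benjamini-Hochberg adjustment over all genes). It was the only one of the 6 members to pass, against a background of 50.8% of the 16473 genes tested that passed in either direction (26.7% higher, 24.1% lower). The values for the others were 1.54 for H2-Aa (SE 0.765, adjusted p = 0.111), 1.64 for H2-Ab1 (0.73, 0.0782) and 1.66 for Cd74 (0.86, 0.125). H2-DMa differed by 0.36 (adjusted p = 0.361) and Ciita by 0.27 (adjusted p = 0.736). The median of the 6 was 1.59, where that of all genes tested was 0.02. The groups did not overlap for H2-Aa, H2-Ab1 and Cd74, that is 3 of 6, against 26.3% of all genes with vehicle above uninjured throughout (24.7% below). All 3 groups share 1 estimate of spread per gene, to which 452 contributes. Without 452, 4 members passed as higher, beside 26.6% of 16930 genes (26.5% lower): H2-Ab1 by 1.62 (adjusted p = 0.00758), H2-Eb1 by 2.64 (0.0113), H2-Aa by 1.53 (0.0219) and Cd74 by 1.65 (0.0246). The H2-Eb1 call did not hold in limma-voom (adjusted p = 0.244) or in limma on log2 FPKM (0.117 with 1 added, 0.0921 with 0.1 added). It was also lost without any 1 of 376, 377, 385, 467, 428 and 429 (adjusted p from 0.0725 to 0.16). With a term for the sample naming 5 members passed as higher, all but Ciita, beside 28.4% of genes (25.7% lower). All vehicle and uninjured libraries fall in the same run of names, so the term adjusts nothing between them. H2-Aa stayed at 1.54 and H2-Ab1 at 1.64. Library 452 is the only tamoxifen library of that run, so with the term it no longer adds to the spread. The SE of H2-Aa was 0.496 with the term and 0.5 without 452. The fit with the term is therefore not a result separate from leaving out 452.

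The second comparison asks whether lesions of tamoxifen mice differ from vehicle lesions. None of the 6 members passed edgeR's test over all 12 libraries, and 0 had an unadjusted p under 0.05; DESeq2 and limma-voom called 0 as well. The background was 16.1% of genes called in either direction (7.79% higher, 8.33% lower). The differences were -0.20 for H2-Aa (SE 0.724), -0.09 for H2-Ab1 (SE 0.684), 0.34 for H2-Eb1 (SE 0.825), 0.25 for H2-DMa (SE 0.305), -0.37 for Cd74 (SE 0.822) and 0.09 for Ciita (SE 0.601), with adjusted p from 0.589 to 0.945. The groups overlapped for 6 of 6 members, where 7.68% of all genes lay higher and 8.77% lower throughout. The misses do not show that the groups are alike. For H2-Aa the tamoxifen mean was 22.0 CPM ± 28.0 (SD, n = 4) against 24.5 ± 6.69 in vehicle lesions. For Cd74 it was 58.9 CPM ± 83.5 against 74.3 ± 27.1.

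The tamoxifen group was split between 452 and the rest. Library 452 was the highest of the 12 libraries for 6 of 6 members, while 3.88% of all genes tested were highest there. Its ratio to the mean of 513, 549 and 564 was 7.83 for H2-Aa, 7.77 for H2-Ab1, 7.40 for H2-Eb1, 10.6 for Cd74, 6.80 for Ciita and 2.77 for H2-DMa. The other 3 libraries lay below every vehicle library for H2-Aa, H2-Ab1 and Cd74, 2 of 3 did for Ciita, 1 for H2-DMa and 0 for H2-Eb1. They lay inside the uninjured range for H2-Aa, H2-Ab1, Cd74 and H2-DMa. Library 452 was singled out by its values for these same genes, so the p-values of fits without it are shaped by that choice. Without 452, edgeR called 4 members lower than in vehicle lesions, beside 13.5% of genes called lower (13.9% higher). Cd74 was lower by 2.11 on the log2 scale (SE 0.63, adjusted p = 0.0277) and H2-Aa by 1.60 (0.553, 0.0495). H2-Ab1 was lower by 1.48 (0.474, 0.0366) and Ciita by 1.14 (0.357, 0.0331). H2-Eb1 differed by -1.01 (adjusted p = 0.321) and H2-DMa by -0.25 (adjusted p = 0.24) in that fit.

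The naming of the samples runs along the same line as this split. Within names 1 to 20 the tamoxifen group is 452 alone, and it exceeded all 4 vehicle libraries for each of the 6 genes, by 1.64 times for H2-Eb1 to 2.11 times for H2-Ab1 over the highest. Names 106 to 108 hold tamoxifen libraries only and give no comparison of their own. With a term for the naming, which rests the tamoxifen effect on 452, the differences from vehicle lesions were 1.37 for H2-Aa, 1.47 for H2-Ab1, 1.88 for H2-Eb1, 1.30 for Cd74 and 1.61 for Ciita. H2-DMa rose by 1.21 in that fit (adjusted p = 0.0406), the only member to pass (0.103% of genes were called higher and 0.243% lower). That p sets 1 library, itself the outlying one, against the vehicle group, with the spread taken from the other libraries, so it compares 452 and not the treatment. Naming and lesion cannot be told apart within the tamoxifen group from these files, so no direction of the tamoxifen difference is given here for any member.

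**Figure D2:**
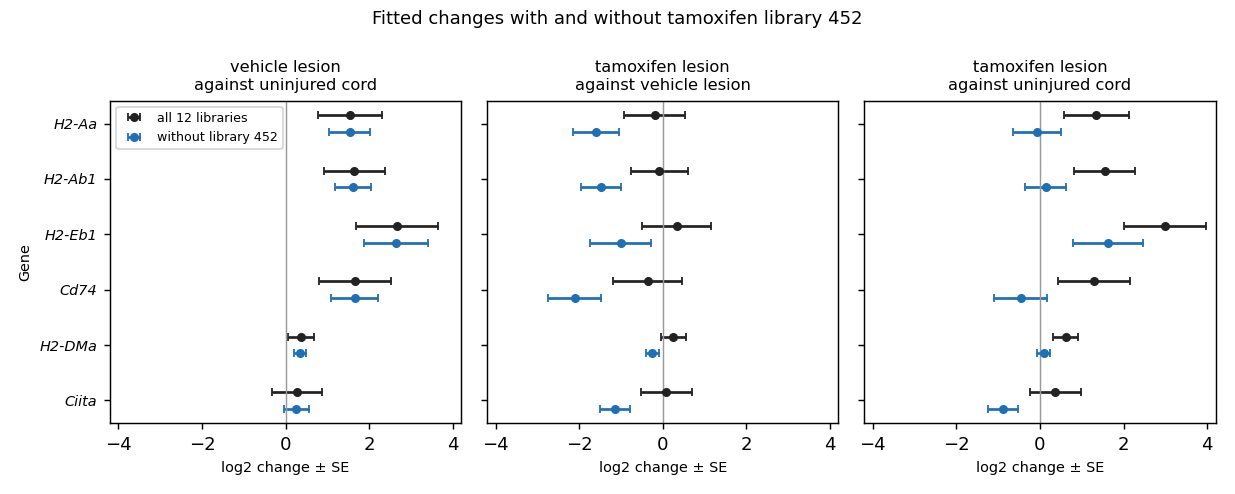
Fitted log2 changes (x axis) with their standard errors for the 6 genes in the 3 comparisons, over all 12 libraries (black) and without tamoxifen library 452 (blue). In tamoxifen against vehicle lesions the black points lie between -0.37 and 0.34 and the blue ones between -2.11 and -0.25, while in vehicle against uninjured cord both sets lie together.

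Against uninjured cord, H2-Eb1 was the 1 member that rose in tamoxifen lesions, by 2.99 (SE 0.983, adjusted p = 0.0234), beside 48.9% of genes called in either direction (26.3% higher, 22.7% lower). It was also the 1 member whose groups did not overlap, against 21.4% of genes higher and 19.7% lower throughout. The other differences were 1.35 for H2-Aa (adjusted p = 0.165), 1.55 for H2-Ab1 (0.0973), 1.30 for Cd74 (0.231), 0.61 for H2-DMa (0.118) and 0.36 for Ciita (0.648). Without 452, edgeR called 0 members (27.7% of genes were higher and 24.8% lower) and 1, Ciita, had an unadjusted p under 0.05 (-0.89, adjusted p = 0.056); H2-Eb1 then differed by 1.63 (adjusted p = 0.119), H2-Aa by -0.07 and Cd74 by -0.46. The H2-Eb1 call was also lost without 377 (adjusted p = 0.0506), 385 (0.0568) or 467 (0.0602). With the term for naming 6 of 6 were higher, beside 7.55% of genes (4.29% lower). That fit again rests the tamoxifen effect on 452, so it compares 1 library with uninjured cord and not the treatment. H2-Aa was at 2.91 in it, against -0.07 without 452. This comparison and the previous one share the tamoxifen libraries, and this and the first share the uninjured ones.

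H2-Eb1 did not keep a fixed proportion to H2-Ab1. The FPKM ratio of H2-Eb1 to H2-Ab1 was 0.237, 0.121, 0.199 and 0.340 in uninjured libraries 376, 377, 385 and 467. In vehicle lesions it was 0.131 in 402 and 0.0501 in 457 but 0.868 in 428 and 0.578 in 429. In tamoxifen lesions it was 0.556, 0.584, 0.542 and 0.345. The ratio therefore spanned a wider range within the vehicle group than over all other libraries, and the tamoxifen libraries, 452 included, stood close together on it. Of the reads counted to the 2 beta chains, H2-Eb1 took 5.43% in 457 (exact 95% binomial interval 3.39 to 8.18%) and 10.5% in 402 (6.51 to 15.7%). It took 40.0% in 429 (35.9 to 44.2%) and 45.9% in 428 (39.3 to 52.7%). The intervals of the low and the high pair do not meet, and they cover counting error only, since reads carry no molecular identifiers. The low pair, 402 and 457, was male and high in muscle transcripts. In the high pair 428 was male and not high in them, and 429 was female and high in them. The cause of the split was not tested.

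**Figure D3:**
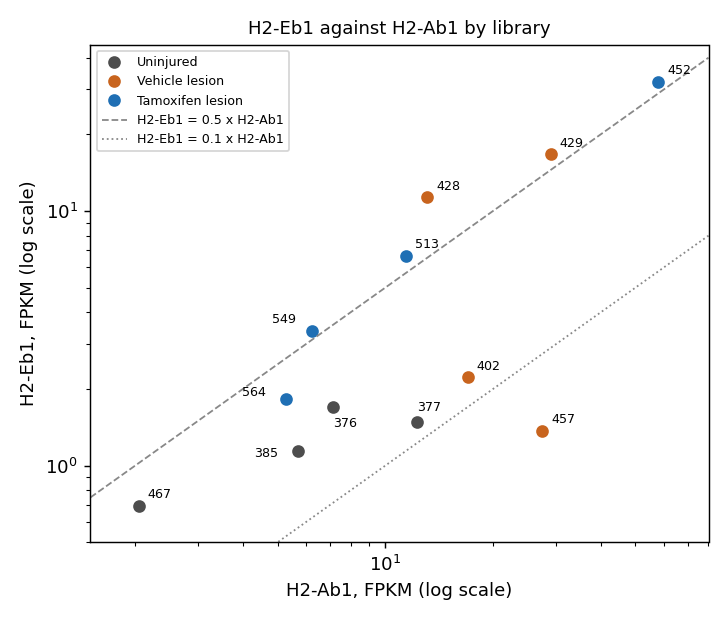
H2-Eb1 against H2-Ab1 in FPKM (both axes logarithmic), 1 point per library coloured by group, with lines at ratios of 0.5 (dashed) and 0.1 (dotted). Vehicle libraries 428 and 429 lie at ratios of 0.868 and 0.578 and 402 and 457 at 0.131 and 0.0501, while the 4 tamoxifen libraries lie between 0.345 and 0.584.

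Of the 6 other class II chains listed, 3 had enough counts to test, and 3 of 3 rose in vehicle lesions. As background for this list and those below, 26.7% of all genes tested were called higher in vehicle lesions and 24.1% lower. Between tamoxifen and vehicle lesions those shares were 7.79% and 8.33%. H2-DMb1, the partner chain of H2-DMa, stood at 6.95 CPM ± 2.20 (SD, n = 4) against 1.85 ± 0.728 and rose by 1.93 (adjusted p = 0.00399), and its close copy H2-DMb2 rose by 1.43 (adjusted p = 0.0434, and 0.105 at most without 1 library). Reads of H2-DMb1 and H2-DMb2 may be shared, so their split is uncertain. H2-Ob, a chain of the H2-DM inhibitor H2-O, rose by 2.31 (adjusted p = 0.00162), from 1.30 to 6.41 CPM on average. Partner chains thus differed in size of change, H2-DMa by 0.36 and H2-DMb1 by 1.93. The FPKM ratio of H2-DMa to H2-DMb1 was 2.69 to 4.38 in uninjured libraries, 0.960 to 2.11 in vehicle lesions and 1.65 to 1.79 in tamoxifen lesions. H2-Oa stood at or below 3.12 CPM, H2-Ea-ps at or below 0.862 CPM and H2-Eb2 at or below 0.494 CPM in every library. Between tamoxifen and vehicle lesions 0 of the 3 tested passed in edgeR (0 with an unadjusted p under 0.05, DESeq2 0, limma-voom 1 lower, and 1 lower in edgeR without 452). Library 452 was the highest of the 12 for H2-DMb1, at 15.5 CPM, and for H2-DMb2, at 4.195 CPM. For H2-Ob vehicle library 402 was the highest, at 8.55 CPM, with 7.91 CPM in 452.

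Genes of the proteins that bind class II promoters were also listed. Of 7 (Rfx5, Rfxap and Rfxank of the X box complex, Creb1, and Nfya, Nfyb and Nfyc of the Y box complex), 1 rose and 2 fell in vehicle lesions. Over all genes tested 50.8% passed in either direction, a share that these calls do not exceed. Nfya rose by 0.81 (adjusted p = 0.00017), Rfx5 fell by 0.34 (adjusted p = 0.00779) and Rfxap fell by 0.34 (adjusted p = 0.015). Their median was -0.06. In tamoxifen against vehicle lesions edgeR, DESeq2 and limma-voom each called 0 of 7, 3 with an unadjusted p under 0.05, and edgeR called 1 higher without 452.

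Genes of antigen processing rose together in vehicle lesions, 7 of 7, with a median of 1.84. Cathepsin S (Ctss), which trims the invariant chain, rose by 2.78 (adjusted p = 3.16e-06), from 74.9 to 512.8 CPM. Cathepsin D (Ctsd) rose by 2.70, cathepsin L (Ctsl) by 1.84, cathepsin B (Ctsb) by 1.54 and the thiol reductase Ifi30 by 2.44. In tamoxifen against vehicle lesions 0 of 7 passed in edgeR, DESeq2 or limma-voom, 0 with an unadjusted p under 0.05, and the median was -0.26. The ubiquitin ligases March1 and March8, which take class II off the surface, differed by at most 0.17 in either comparison, and edgeR, DESeq2 and limma-voom called 0 of 2 in each (0 with an unadjusted p under 0.05).

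Costimulatory genes, whose products T cells read alongside class II, rose in 5 of 6 tested. Cd86 rose by 3.07 (adjusted p = 2.9e-05), from 1.91 to 16.2 CPM, Icosl by 1.04, Cd80 by 1.02 and Cd40 by 1.02, while Cd83 differed by -0.05 (adjusted p = 0.757). After tamoxifen 0 of 6 differed from vehicle in edgeR, DESeq2 or limma-voom, with 1 unadjusted p under 0.05 (Cd80, -0.62), and edgeR called 2 lower without 452. Cd86 stood at 15.7 CPM in tamoxifen library 452 and at 8.02, 10.7 and 7.07 CPM in the others, all above the uninjured maximum of 2.20 CPM.

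Of the interferon gamma pathway, 4 of 7 tested genes rose in vehicle lesions, beside 26.7% of all genes tested. The receptor chains Ifngr1 and Ifngr2 rose by 1.43 (adjusted p = 1.31e-05) and 0.37 (0.00635), the transcription factor Irf1 by 1.38 (0.00023) and the feedback inhibitor Socs1 by 1.00 (0.0363, and 0.138 at most without 1 library). Ifng itself was at 0 counts in 10 libraries, with 1 count in 428 and 2 in 457. A count of 0 allows up to about 3 counts, so a low level of the cytokine was not detectable at this depth. After tamoxifen 0 of 7 differed from vehicle in edgeR, DESeq2 or limma-voom, and 2 had an unadjusted p under 0.05; without 452 edgeR called 1 lower. The Cd74 protein is also part of a surface receptor for Mif. Its partners Cd44 and Cxcr4 rose in vehicle lesions by 2.64 (adjusted p = 2.81e-06) and 2.29 (5.9e-05), while Mif differed by -0.22 (adjusted p = 0.127). Mif was 0.37 higher in tamoxifen than in vehicle lesions (adjusted p = 0.044), a call lost without 1 library (up to 0.133) and with the term for naming (0.09, adjusted p = 0.83).

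Markers of cells that can carry class II moved with the groups, and their part in the class II values was not tested. In bulk tissue fewer cells of a type and less RNA per cell cannot be told apart. All 9 phagocyte genes rose in vehicle lesions, with a median of 2.94 (Cd68 by 4.24, Itgam by 2.38), and their summed level went from 161 to 241.4 CPM in uninjured cord to 1247 to 2244 CPM. Between tamoxifen and vehicle lesions edgeR called 0 of 9, 3 with an unadjusted p under 0.05, and DESeq2 and limma-voom called 1 lower each, as did edgeR without 452. In tamoxifen lesions the sum was 1159 CPM in 452, and 1904, 1859 and 908.9 CPM in 513, 549 and 564. The library with the most class II transcript was thus not the one with the most phagocyte transcript. Summed over the 6 members, class II stood at 379.7 CPM in 452 and at 71.6, 39.5 and 34.1 CPM in 513, 549 and 564, which is at or below the highest uninjured sum of 86.3 CPM. Relative to the mean log2 level of the 9 phagocyte genes, Cd74 lay between -2.84 and -1.50 in 513, 549 and 564, at 1.20 in 452, between -1.09 and 0.48 in vehicle lesions and between -2.21 and 1.62 in uninjured cord. H2-DMa, on the same scale, lay from -0.82 to -0.49 in uninjured cord, from -3.91 to -2.78 in vehicle lesions and from -3.30 to -1.75 in tamoxifen lesions.

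**Figure D4:**
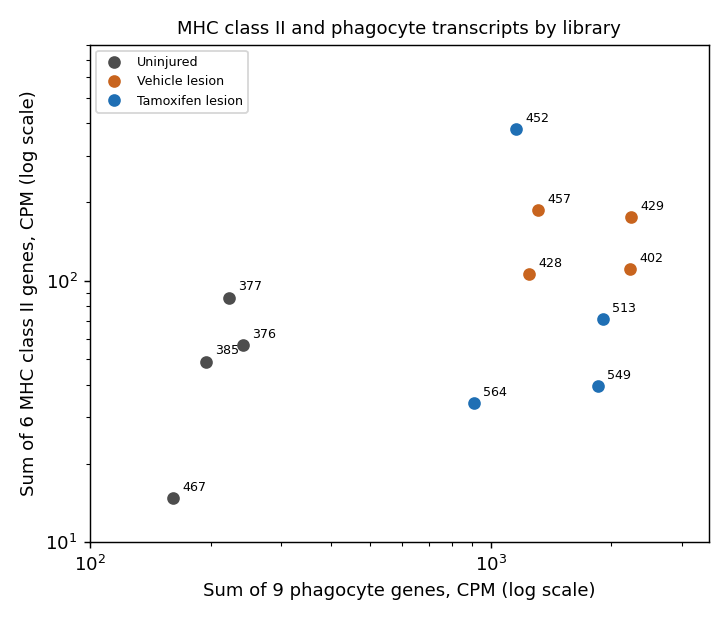
Summed CPM of the 6 MHC class II genes (y axis) against summed CPM of 9 phagocyte genes (x axis), both logarithmic, 1 point per library coloured by group. Tamoxifen libraries 513 and 549 have phagocyte sums of 1904 and 1859 CPM, inside the vehicle range of 1247 to 2244 CPM. Libraries 564 and 452 lie below that range, at 908.9 and 1159 CPM. Class II sums are 34.1 to 71.6 CPM in 513, 549 and 564 and 379.7 CPM in 452.

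Border macrophage markers rose in 4 of 7 (26.7% of all genes tested rose), Mrc1 by 1.59 (adjusted p = 0.00633) and Lyve1 by 2.17 (0.00824). Their summed level was 18.3 CPM in uninjured library 467, where 5 of 6 class II members were lowest (15.1% of all genes were lowest there), against 58.8 to 71.8 CPM in the other uninjured libraries. The sum was 102.3 to 210.8 CPM in vehicle lesions, and in tamoxifen lesions it was lowest in 452, at 75.6 CPM, and reached 194.8 CPM in 549. Of 4 dendritic cell genes tested, Itgax and Batf3 rose in vehicle lesions by 6.54 and 0.81 while Flt3 fell by 0.66 (adjusted p = 5.82e-05). Itgax was also the 1 gene of that list to fall from vehicle to tamoxifen lesions, by 1.51 (adjusted p = 0.0108; -0.77 with adjusted p = 0.442 with the term for naming), and stood at 49.6, 35.0, 21.5 and 14.2 CPM in 452, 513, 549 and 564. Lymphocyte markers were scarce. The 6 B cell genes summed to at most 1.96 CPM in any library, with Cd79a at or below 0.559 CPM. Of T cell genes Cd3e stayed at or below 0.918 CPM, at 0 counts in 467 and 549, and Cd4 at or below 1.38 CPM. The T cell list reached 74.6 CPM through Lag3, which rose by 3.28 in vehicle lesions. Lag3 stood at 46.5 CPM in 452 and at 10.6, 5.81 and 16.8 CPM in 513, 549 and 564. In uninjured cord Lag3 was already at 3.87 to 5.62 CPM, with Cd3e at or below 0.264 CPM, so its level is not read here as T cells. Microglia markers rose in 5 of 6 in vehicle lesions. Between tamoxifen and vehicle lesions edgeR called 1 of the 6, and the list median was -0.18. That gene, Tmem119, was lower by 0.64 (adjusted p = 0.022), a call lost without 1 library (up to 0.069). With the term for naming, which rests on 452, it was at -0.68. Monocyte genes rose in 2 of 2 tested, Ccr2 by 3.05.

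The members were compared with all genes by standardising log2 CPM over the 12 libraries and taking the mean absolute difference between profiles. Cd74 was the gene nearest to H2-Aa (0.0945) and H2-Ab1 the next (0.15), and the 3 had one another and cathepsin E (Ctse) as their nearest genes. Relative to the mean profile of the 6 members, H2-Ab1 lay at 0.175, H2-Aa at 0.215, Cd74 at 0.272, H2-DMa at 0.345, Ciita at 0.51 and H2-Eb1 at 0.562, where the median of all genes was 1.03. Outside the members the nearest were Igtp (0.31), Rbm12 (0.318), Irgm2 (0.336), Filip1 (0.344), Gbp5 (0.361), Ctse (0.365), Ercc2 (0.383) and Samhd1 (0.385). Igtp, Irgm2 and Gbp5 are GTPases induced by interferon gamma. The genes near H2-DMa included Igtp (0.366) and Cryab (0.395). H2-Eb1 had Agpat5 (0.406), Rbm12 and Mtmr2, and Ciita had BC016423 (0.303), Filip1 and Engase. These distances are descriptions over 12 libraries that share 1 outlying library.

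In levels, Igtp stood at 42.9 CPM in 452 and at 11.2, 12.2 and 7.07 CPM in 513, 549 and 564, with 10.3 to 15.5 CPM in vehicle lesions and 4.30 to 7.71 CPM in uninjured cord. Irgm2 stood at 40.8 CPM in 452 against 9.18 to 13.1 CPM in the other tamoxifen libraries and Gbp5 at 27.9 CPM against 6.89 to 9.51 CPM. Samhd1, a nucleotide hydrolase that limits viral growth, stood at 67.2 CPM in 452 against 34.4 to 38.7 CPM in the other tamoxifen libraries and 44.1 to 54.2 CPM in vehicle lesions. In each of these genes 452 was the highest library, as it was for the 6 members. The genes were picked for likeness to the members' profile, so this follows largely from the choice. Ctse, a protease of the endosome, stood at 28.0 CPM in 452 and 1.10 to 3.47 CPM in the other tamoxifen libraries, at 3.46 to 22.7 CPM in vehicle lesions and at 0 counts in 467. Rbm12, by contrast, spanned only 9.48 to 17.9 CPM over all 12 libraries, standardised profiles being blind to the size of a change.

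**Figure D5:**
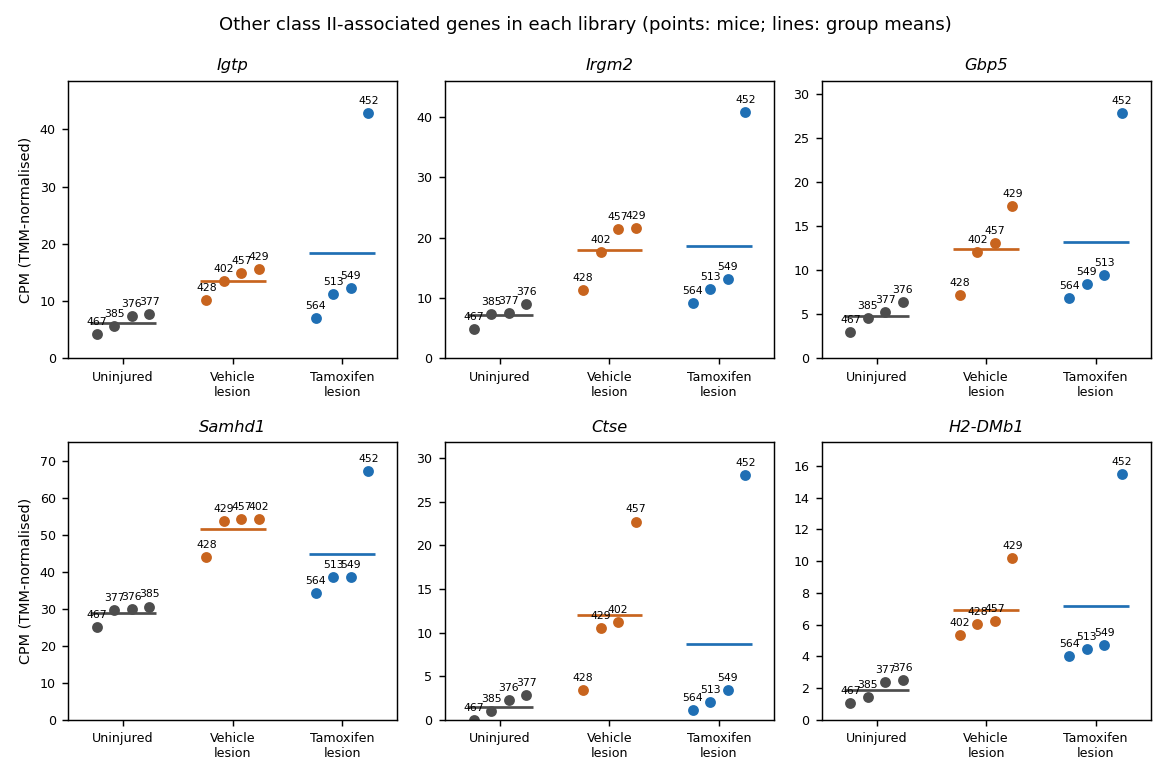
TMM-normalised CPM (y axis, linear, from 0) of 5 genes near the class II profile and of H2-DMb1 in each library by group; points are mice with their numbers, and lines are group means of 4. Library 452 is the highest point in all 6 panels, at 42.9 CPM for Igtp and 67.2 CPM for Samhd1. The 5 genes were picked for likeness to the members' profile, so their height in 452 follows largely from the choice.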

How the data were processed

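The authors deposited raw counts for 37991 Ensembl genes and FPKM per gene, scaled to transcript length and library size. Per the submitters' processing notes, the tools were TopHat, Picard, Cufflinks and HTSeq and the build mm9; strandedness was not given in the sources used here. Members and lists were chosen with earlier results of these data known. Counts were fitted in R 4.3.3 with edgeR 4.0.16 (filterByExpr minimum count 10 and total 15, TMM, quasi-likelihood, 3 group means, 9 residual degrees of freedom), two-sided, with Benjamini-Hochberg adjustment over 16473 genes at 0.05. The fit was also run on simulated counts that held no outlying library and no naming, sex or muscle difference. That run therefore cannot speak to those features of these libraries. For the 6 members the mean ratio of counts to FPKM differed by at most 0.13 on the log2 scale between the 2 runs of sample names. Single libraries differed more. Ciita stood at 3.25 CPM and 0.219 FPKM in 385, but at 3.49 CPM and 0.500 FPKM in 429. This check did not compare the groups. Named genes were the members, up to 4 genes of smallest p per list and comparison, fixed genes such as Ifng, Cd3e and Cd79a, and the nearest profiles among genes of at least 5 CPM. RefSeq GRCm38.p6 gave names and promoters only. Alternatives used DESeq2 1.42.0, limma 3.58.1 (voom, and log2 FPKM with 1 or 0.1 added), other filters and scalings, terms for sex and naming, and libraries left out. Results for 1 gene near the class II profile are not reported here.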

Additional observations from a re-analysis of the deposited data

Results flagged for a closer look

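Tamoxifen library 452 lay farther from its group than a Dixon test at the 95% level allows in 5 of the 18 group values checked for the 6 members. H2-Aa stood at 63.64 CPM there, with 13.42 CPM in the nearest tamoxifen library. H2-Ab1 stood at 64.6 CPM against 12.39 CPM. H2-DMa stood at 23.61 CPM against 9.278 CPM. Cd74 stood at 183.6 CPM against 27.96 CPM. Ciita stood at 10.55 CPM against 2.237 CPM. Chance alone marks about 1 in 20 groups, and all 5 values come from 1 library. H2-Eb1 in 452 did not pass this limit, at 33.68 CPM against 7.642 CPM.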

How the results depend on the processing

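No paired analysis was possible because no 2 groups share a mouse number. Member counts and signs changed with the test, the scale, the terms fitted and the libraries left out; the cause was not tested. In vehicle against uninjured cord the count of 1 became 2 with limma-voom (H2-Aa and H2-Ab1, not H2-Eb1), 0 with limma on log2(FPKM + 1), 4 with only the 8 libraries compared, 5 with the naming term, 2 with the sex term and 0 without the muscle-high libraries, which leaves 1 vehicle library assumed to vary like the rest; leaving out 1 library gave 0 to 4. On log2(FPKM + 0.1) the 1 call was H2-Ab1 (adjusted p = 0.0493), not H2-Eb1. For both comparisons of tamoxifen lesions the naming term rests the tamoxifen effect on library 452. In tamoxifen against vehicle lesions the count of 0 became 1 with the naming term and 0 to 4 without 1 library. In tamoxifen against uninjured cord the count of 1 became 0 with limma-voom, with limma on log2(FPKM + 1) or log2(FPKM + 0.1) and without the muscle-high libraries, 6 with the naming term, and 0 to 2 without 1 library.

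Signs turned as follows in tamoxifen against vehicle lesions. With the naming term H2-Aa was at 1.37, H2-Ab1 at 1.47 and Cd74 at 1.30. Without the muscle-high libraries H2-Aa was at 0.37, H2-Ab1 at 0.57, H2-Eb1 at -0.11 and Cd74 at 0.23. With the sex term H2-Eb1 was at -0.60 and Ciita at -0.0676. H2-DMa was at -0.054 and -0.0763 with log2 FPKM (1 and 0.1 added), and Ciita at -0.57 with limma-voom and -0.20 with log2(FPKM + 0.1). Leaving out 1 library gave -1.60 to 0.14 for H2-Aa, -1.48 to 0.24 for H2-Ab1, -1.01 to 1.14 for H2-Eb1, -0.25 to 0.42 for H2-DMa and -1.14 to 0.42 for Ciita. Against uninjured cord, Ciita in vehicle lesions was at -0.50 without the muscle-high libraries and at -0.0508 to 0.45 without 1 library. Ciita in tamoxifen lesions was at -0.34 with limma-voom and, without 1 library, at -0.89 to 0.69, H2-Aa at -0.0734 to 1.81 and Cd74 at -0.46 to 1.77. Other scalings, filters and the DESeq2 test left all 3 counts and all member signs as they were. Depth limits Ciita (12 to 88 counts) and H2-Eb1 in uninjured cord (11 to 20 counts). Over all genes, the 2655 called between tamoxifen and vehicle lesions became 57 with the naming term, 989 with the sex term, 1513 with 8 libraries, 1519 and 1439 with log2 FPKM (1 and 0.1 added) and 0 without the muscle-high libraries, where the 8368 of vehicle against uninjured cord became 296.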
